A study of Sus scrofa with 4 samples.

Results

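Chemokine and chemokine receptor genes were examined in the ileum (the end of the small intestine) taken from suckling piglets with low and with high weight gain. Members were all genes whose symbol starts with CCL, CXCL, CX3CL, XCL, CCR, CXCR, CX3CR or XCR followed by a digit and whose RefSeq transcript was printed on the array. There were 31 such genes, 21 chemokines and 10 receptors, among 2389 genes that could be named in this way, and they were read by 39 of 43603 probes. Another 16 symbols of the same families, *CCR6*, *CXCR3*, *CXCR5*, *CXCL13* and *CX3CR1* among them, had no matched probe and were not analysed here.

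All piglets were 16 days old and fed by lactating sows, and they came from Duroc sires and Yorkshire × Landrace dams. Low-gain arrays a and b each held a pool of RNA from 2 piglets, and high-gain arrays a and b each held a pool from 3 piglets. The series' design text speaks of the lightest and heaviest piglets at birth instead, and the sample labels, which speak of weight gain, were followed. Pooling means that the spread between single piglets was not measured, and whether a and b came from different pools is not stated, so that p-values reflect no more than the spread among these 4 arrays, possibly a technical one. All 4 arrays lay on 1 slide, and the spots well above background numbered 32835 to 33972 per array, of 43803 that are not controls. The tissue label was checked against 6 epithelial markers of the ileum, all of which were well above background on all 4 arrays, and *FABP6*, the ileal bile acid binding protein gene, was at 8.65 and 8.72 in low gain and at 8.55 and 8.76 in high gain. These levels, and all levels below, are normalised log2 signals: the log2 processed signal of a probe minus the 75th percentile of its array. A value of 0 is thus that percentile, a difference of 1 is 2-fold, and levels of different probes are not comparable with each other.

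Chemokines are small secreted proteins that guide the movement of leukocytes, and they act through receptors coupled to G proteins on the cell surface. They are named after the spacing of their first cysteines, which gives the CC, CXC, C (XCL) and CX3C families, and 1 chemokine can bind several receptors. In the small intestine, epithelial CCL25 and its receptor CCR9 are known for drawing lymphocytes into the mucosa, while CCL19, CCL21 and CCR7 bring lymphocytes and dendritic cells into lymphoid tissue.

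Apart from *CCR3*, the largest differences were higher levels in low gain of *CCL5*, *XCL1*, *CXCL16* and *CCR9*, and a lower level of *CXCR4*. *CCR3* had the widest fitted difference, also higher in low gain. It entered the test only through its low-gain arrays, so the filter set its direction, and its size is not known. The counts below include *CCR3*. By the median, the 31 genes were 0.22 higher in low gain on the log2 scale, against 0.02 over all 2158 tested genes. Of the 31, 22 had a higher mean in low gain (all tested genes: 53.4%) and 9 a lower one (all tested genes: 46.6%). No member passed the test over all 33265 tested probes (limma, Benjamini-Hochberg adjusted p under 0.05). The lowest limma adjusted p was 0.0807, for *CCR3*, and the next was 0.115, for *CCL5*. In the same fit 0.417% of tested genes passed. At an unadjusted limma p under 0.05 there were 13 of 31 members (41.9%), 11 of them higher and 2 lower in low gain. Of all tested genes 21.6% reached that p, 12.5% higher and 9.13% lower in low gain.

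When the prior variance of the limma fit followed signal intensity, 7 of 31 members passed (22.6%; all tested genes 7.88%). *CCL5*, *XCL1*, *CXCL16*, *CCL25*, *CCR9* and *CCR3* were the 6 higher in low gain (all tested genes: 5.19%), and *CXCR4* was the 1 lower (all tested genes: 2.69%). *CCR3* is counted among the 7 although it entered the test only through low gain, so that its direction was set by the filter. That count rested on all 4 arrays: 1 member, *CCL5*, passed in that fit without low-gain array a (all tested genes: 1.3%), without low-gain array b (2.41%) or without high-gain array a (1.16%), and *CCL5* and *CXCL16* passed without high-gain array b (3.38%). Normexp background correction, run on the median signal, subtracts the local background of each spot and models the remainder as signal plus noise. With it 6 members passed (all tested genes: 8.2%), the same as with the intensity trend except *CCR3*. With local backgrounds over 100 replaced by the median background of the array, 5 passed (all tested genes: 5.47%), these 6 without *CCL25*. The highest local background was 166072 on low-gain array a and 104994 on high-gain array b. It was 29 on low-gain array b and 27 on high-gain array a. Both forms of normexp added an offset of 50 to the corrected signal before the log2, which narrows differences, most of all for dim probes.

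The groups did not overlap for 26 of 31 members (83.9%; all tested genes 61.8%). Low gain was the higher group for 18 of these 26 (69.2%) and high gain for 8 (30.8%). Among the 1333 tested genes without overlap, the shares were 52.7% and 47.3%, which is 32.6% and 29.2% of all tested genes. The gap between the groups was wider than the gap within either group for 17 of 31 members (54.8%; all tested genes 29.3%). The median absolute log2 difference over the members was 0.06 between the low-gain arrays and 0.09 between the high-gain arrays, and it ran from 0.22 to 0.34 between arrays of different groups. Over all tested genes the corresponding values were 0.10, 0.13 and 0.17 to 0.27. All members were tested, but *CCR3* entered the test only through its low-gain arrays and therefore had to differ. The other 30 were well above background on all 4 arrays, and their median log2 difference was 0.21. In pooled tissue, a lower level from fewer cells of a type and one from less RNA per cell cannot be told apart.

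**Figure D1:**
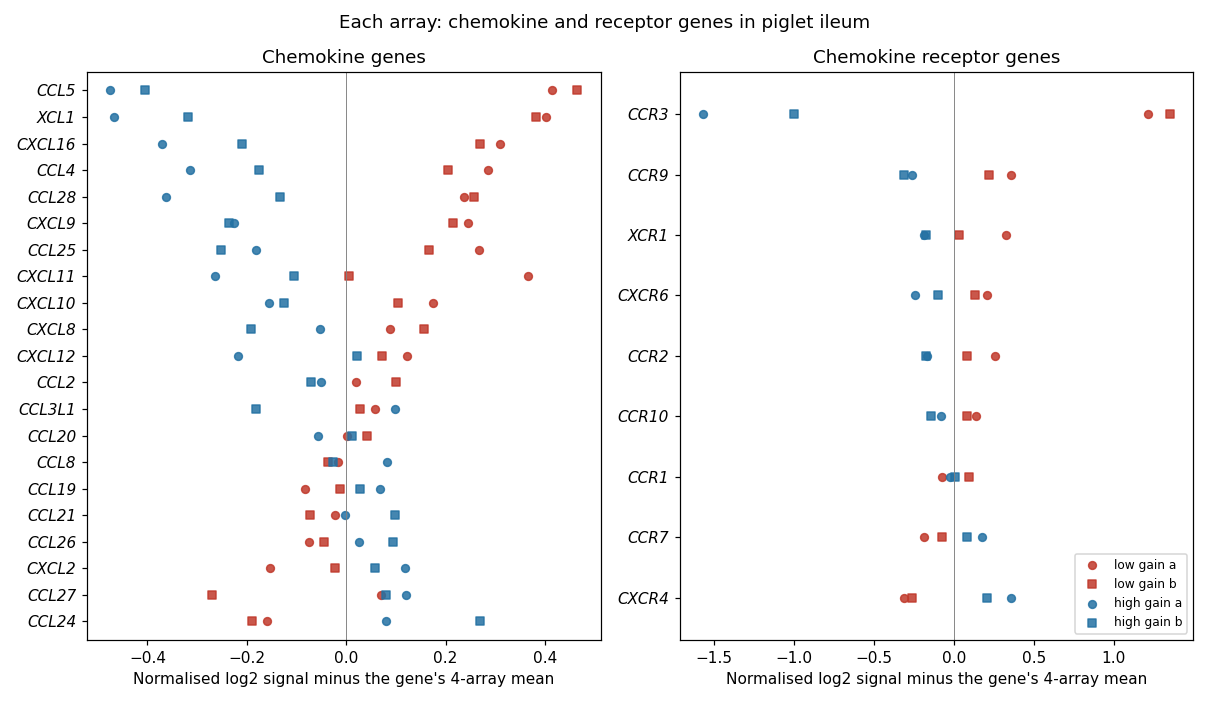
Normalised log2 signal of 21 chemokine genes (left) and 9 receptor genes (right) on the 4 arrays, as the deviation from the mean of that gene over the arrays, with low gain in red, high gain in blue, array a as circles and array b as squares. *CCL5* and *XCL1* show both low-gain arrays well to the right of both high-gain arrays, and *CXCR4* shows the opposite order. The horizontal scales of the panels differ.

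Among chemokines made by T cells and natural killer cells, *CCL5* and *XCL1* differed most. *CCL5*, which draws T cells, monocytes and eosinophils, was at 3.72 and 3.77 on the low-gain arrays and at 2.83 and 2.90 on the high-gain arrays. The groups did not overlap, with a gap of 0.82 between them against at most 0.07 within a group. Its level was 1.84-fold higher in low gain (log2 difference 0.88 ± 0.10, limma adjusted p = 0.115, where ± is the SE and n = 2 in each group here and below), and its other probe gave 0.72 ± 0.11. *CCL5* passed with the intensity trend and with both forms of normexp, as did *XCL1*, *CXCL16*, *CCR9* and *CXCR4*. These fits use the same 4 arrays, and replacing bright backgrounds was chosen after seeing the data. The *CCL5* difference lay between 0.75 and 0.91 in all 18 alternative analyses.

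*XCL1* encodes lymphotactin, a chemokine of activated cytotoxic lymphocytes that attracts dendritic cells bearing XCR1. Its level was -0.62 and -0.64 in low gain and -1.49 and -1.34 in high gain, so that every low-gain array was above both high-gain arrays. The difference was 1.73-fold (log2 0.79 ± 0.11, limma adjusted p = 0.139). It was 0.35 with normexp background correction, or 0.65 with bright backgrounds replaced. The gene of its receptor, *XCR1*, had a log2 difference of 0.36 ± 0.14 on its brighter probe, and its other probe was too dim to be tested. It was 0.22 without low-gain array a, 0.50 without low-gain array b, 0.18 with normexp and 0.31 with bright backgrounds replaced.

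The remaining genes of these cells did not all differ alike. *CCL4*, which draws T cells and monocytes, had a log2 difference of 0.49 ± 0.11, with groups that did not overlap. Its difference was 0.23 with normexp, or 0.42 with bright backgrounds replaced. *CCL3L1*, a related chemokine gene, differed by 0.09 ± 0.14, with low-gain arrays that lay between the high-gain arrays, and its direction turned without high-gain array b.

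Markers of cytotoxic and natural killer cells differed in the same direction as *CCL5* and *XCL1*. Of 14 listed markers 7 were measured, and 6 of these 7 had a higher mean in low gain (all tested genes: 53.4%). Their summed linear signal ran from 19.7 to 20.5 times the 75th percentile in low gain and from 10.7 to 11.2 in high gain. Such a sum weighs bright probes most, and without its brightest, *GZMB*, it was 8.86 to 9.24 against 5.85 to 6.22. *GZMK*, a granzyme gene, rose 3.18-fold (log2 difference 1.67 ± 0.10, limma adjusted p = 0.0383). *GZMH* differed by 1.28 ± 0.10, *FCGR3A*, an IgG receptor gene, by 0.36 ± 0.11, and *NCR1*, a natural killer receptor gene, by -0.10 ± 0.42. No measured marker of this list was below background in a whole group.

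General T cell markers went both ways. Of 14 listed, 8 were measured and 0 passed, with a median log2 difference of 0.29. At an unadjusted limma p under 0.05 there were 5 of 8 (all tested genes: 21.6%), of which 4 were higher in low gain. *CD8A* differed by 0.95 ± 0.11 but by 0.03 on its other probe, and *CD3E* by 0.53 ± 0.17. *CD3D* differed by -0.21 ± 0.17 (other probe 0.08) and *CD247* by -0.67 ± 0.12 (other probe -0.86). Their summed signal was 16.6 to 16.8 in low gain and 19.8 to 21.3 in high gain, but *CD247* made up 52.1% to 71.1% of it. Without *CD247* the order turned, with 7.3 to 8.06 in low gain and 6.16 to 6.24 in high gain. The part of these cells in the chemokine differences was not tested.

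**Figure D2:**
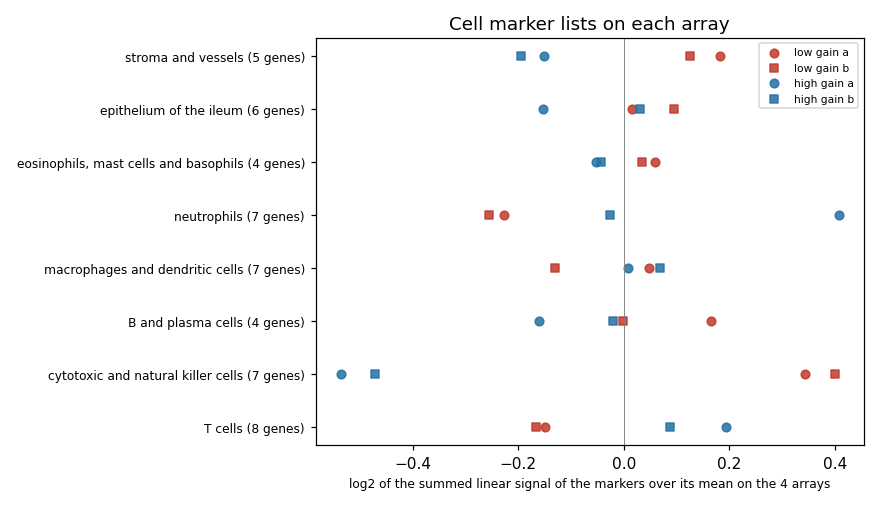
Summed linear signal of each cell marker list on each array, as log2 over its mean on the 4 arrays, with low gain in red and high gain in blue. The cytotoxic and natural killer list has the widest gap between groups, with sums of 19.7 to 20.5 in low gain and 10.7 to 11.2 in high gain. The order of the groups turns without the brightest marker for T cells, B and plasma cells, and stroma and vessels.

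*CXCL16*, a chemokine that also occurs as a membrane-bound scavenger receptor, was at 3.96 and 3.92 in low gain and at 3.28 and 3.44 in high gain. The groups were separated by 0.48, and the level was 1.49-fold higher in low gain (log2 difference 0.58 ± 0.11, limma adjusted p = 0.174). Its other probe gave 0.66 ± 0.11. The gene of its receptor, *CXCR6*, differed by 0.34 ± 0.11, also without overlap. The *CXCR6* difference was 0.16 with normexp, or 0.30 with bright backgrounds replaced.

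The interferon-inducible ligands of CXCR3, *CXCL9*, *CXCL10* and *CXCL11*, were each higher on both low-gain arrays than on both high-gain arrays. *CXCL9* had the largest difference of the 3, at 0.46 ± 0.10 (limma adjusted p = 0.185). It was 0.21 with normexp, or 0.37 with bright backgrounds replaced. *CXCL10* differed by 0.28 ± 0.10, and its other probe by 0.37 ± 0.11. *CXCL11* was dim, and its difference of 0.36 ± 0.17 came with a gap of 0.36 between the low-gain arrays and was 0.03 with normexp. The interferon gene *IFNG* itself differed by 0.11 ± 0.21, and the interferon-induced factor *IRF1* by 0.10 ± 0.10, with its other probe at -0.15.

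The receptor and ligand that guide lymphocytes to the small intestine were both higher in low gain by their means. *CCL25*, the chemokine of the small-intestinal epithelium, was at 4.20 and 4.10 in low gain and at 3.75 and 3.68 in high gain. The difference was 1.35-fold (log2 0.43 ± 0.11, limma adjusted p = 0.198), and the groups were 0.35 apart. *CCR9*, the gene of its receptor, was at -0.29 and -0.43 in low gain and at -0.91 and -0.96 in high gain. Its groups did not overlap either, and the difference was 1.49-fold (log2 0.57 ± 0.11, limma adjusted p = 0.172). With normexp background correction *CCR9* differed by 0.29, or by 0.51 with bright backgrounds replaced.

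*CCL28*, a mucosal chemokine that attracts plasma cells and other cells with CCR10, was at -2.09 and -2.07 in low gain and at -2.69 and -2.46 in high gain. The difference was 1.41-fold (log2 0.49 ± 0.12, limma adjusted p = 0.203), and it was 0.16 with normexp and 0.30 with normexp after bright backgrounds were replaced. *CCR10* was at -0.73 and -0.79 in low gain and at -0.95 and -1.01 in high gain, a difference of 0.22 ± 0.10 without overlap. *CCL27*, the skin ligand of CCR10, was dim and went the other way, from -4.50 and -4.84 in low gain to -4.45 and -4.49 in high gain (-0.20 ± 0.15). *CCL20*, the chemokine of the epithelium over lymphoid follicles, was at 3.19 and 3.23 in low gain and at 3.13 and 3.20 in high gain. These groups overlapped, and the direction of *CCL20* depended on the scale, with -0.03 under both forms of normexp and -0.04 in the values deposited by the authors.

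Epithelial markers stood beside these differences. Of 14 listed, 6 were measured and all 6 had a higher mean in low gain (all tested genes: 53.4%). Their median log2 difference was 0.46, and 0 passed the test. At an unadjusted limma p under 0.05 there were 3 of 6 (all tested genes: 21.6%), all higher in low gain. With the intensity trend 2 of 6 passed (all tested genes: 7.88%). *CDH1*, the E-cadherin gene, differed by 0.58 ± 0.10, *CHGA* by 0.49 ± 0.15, *EPCAM* by 0.16 ± 0.13 and *FABP6* by 0.02 ± 0.12. Their summed signal was 568 to 600 in low gain and 505 to 574 in high gain, of which *FABP6* made up at least 70%. Without *FABP6* the sums were 167 to 180 and 129 to 140 and did not overlap. Whether epithelial content had a part in the *CCL25* and *CCL28* differences was not tested.

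Genes of traffic through lymphoid tissue had lower means in low gain, except *CXCL12*. *CXCR4*, the receptor of CXCL12 on B cells, T cells and other leukocytes, was at 1.34 and 1.39 in low gain and at 2.01 and 1.86 in high gain. Both low-gain arrays were below both high-gain arrays by at least 0.47. The level was 1.48-fold higher in high gain (log2 difference -0.57 ± 0.11, limma adjusted p = 0.174), and it lay between -0.65 and -0.45 in all 18 alternatives, 3 of which passed. *CXCL12*, its stromal ligand, was at 2.91 and 2.86 in low gain and at 2.57 and 2.81 in high gain. Its difference of 0.20 ± 0.13 had the opposite sign, and the groups were only 0.05 apart. It was 0.08 without high-gain array a and 0.31 without high-gain array b. Of 13 markers of stroma and vessels 5 were measured, 2 higher and 3 lower in low gain. Of these, 0 passed the test and 1, *DES*, had an unadjusted limma p under 0.05 (all tested genes: 21.6%). *DES*, the desmin gene of muscle, was at 0.51 ± 0.10, with other probes at -0.34 to -0.02, and *ACTA2*, a smooth muscle actin gene, at -0.25 ± 0.15, with other probes at -0.61 to 0.23. Their summed signal was 201 to 209 in low gain and 161 to 166 in high gain, but without *DES* it was 40.1 to 42.8 and 43.9 to 53.6, the opposite order. Their part in the *CXCL12* difference was not tested.

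*CCR7*, the homing receptor of naive T cells and mature dendritic cells, was at 0.66 and 0.77 in low gain and at 1.02 and 0.93 in high gain. The difference was -0.26 ± 0.11 (limma adjusted p = 0.317), with no overlap. *CCL19* was at 4.16 and 4.23 in low gain and at 4.31 and 4.27 in high gain, and *CCL21* at 0.33 and 0.28 against 0.35 and 0.45. The differences of these ligands, -0.09 ± 0.10 and -0.10 ± 0.10, were about the size of their standard errors. B and plasma cell markers did not go one way: of 13 listed 4 were measured, 2 higher and 2 lower in low gain, with *XBP1*, a plasma cell factor, at 0.25 ± 0.12 (other probes -0.31 to 0.06) and *CD79A*, a subunit of the B cell receptor, at -0.31 ± 0.13. Their summed signal was 78.0 to 87.6 in low gain and 69.9 to 77.0 in high gain, and without *XBP1* it was 12.1 to 12.9 and 13.2 to 15.6, the opposite order. Of these 4 markers, 3 were well above background on all 4 arrays. The remaining marker, lower in low gain, entered the test only through high gain. For macrophages and dendritic cells all 7 measured markers of 15 listed had a lower mean in low gain (all tested genes: 46.6%). At an unadjusted limma p under 0.05 there were 4 (all tested genes: 21.6%), and 0 passed the adjusted test. Of the 7, 6 were well above background on all 4 arrays. The remaining marker, among those 4, entered the test only through high gain, so the filter favoured a lower level in low gain. Examples of these 7 markers were *CD163* at -0.41 ± 0.10, *CD80* at -0.59 ± 0.12 and *CD40* at -0.02 ± 0.12. Their summed signal, 42.2 to 47.7 in low gain and 46.4 to 48.4 in high gain, overlapped, and without *CD40* it was 7.14 to 7.33 and 9.02 to 9.3. The part of these cells in the *CCR7* and *CXCR4* differences was not tested.

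**Figure D3:**
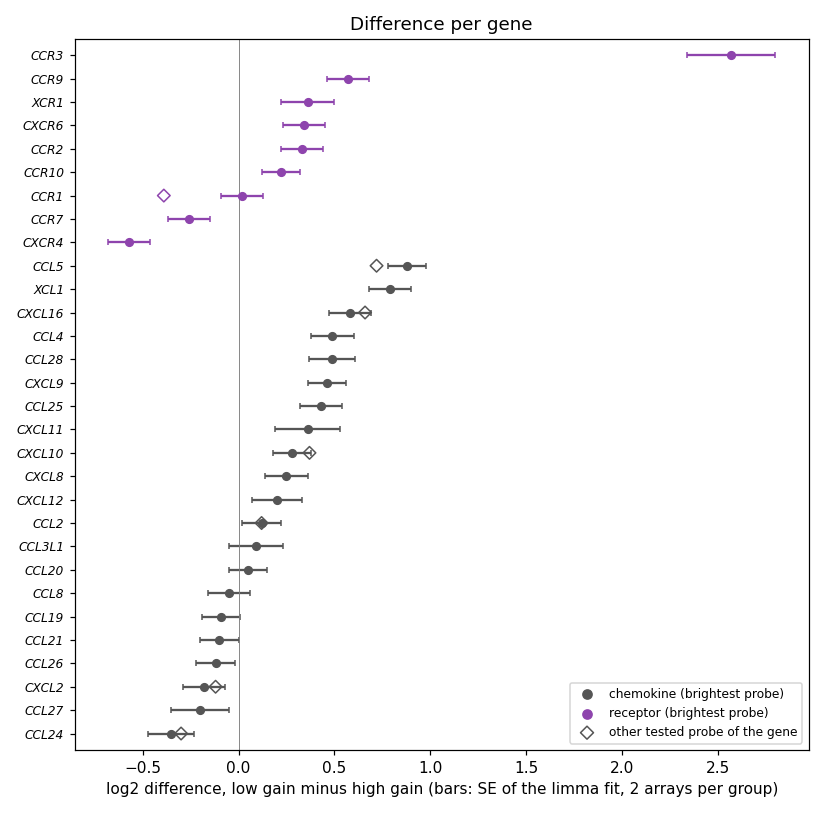
Difference between groups (log2, low gain minus high gain) of 30 members, each by its brightest probe, with the SE of the limma fit as bars, receptors in purple and chemokines in grey. Open diamonds are the other tested probes of a gene; they lie near the brightest probe except for *CCR1*, at 0.02 and -0.39.

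The widest difference of the members was that of an eosinophil receptor gene whose signal was not well above background in high gain. *CCR3*, the gene of the eotaxin receptor, was at -4.38 and -4.24 in low gain, well above background on both arrays. In high gain it was at -7.16 and -6.59, where neither array was well above background, so the size of its difference is not known. Against the higher of its own signal and the lowest signal well above background on each high-gain array, the low-gain level was 4.39-fold higher (log2 2.13). That lowest signal is no detection limit: it was -6.77 on high-gain array b, below the -6.59 of *CCR3*. The 4.39-fold is therefore a rough value, not a lower limit, and holds for the scaling used here only. The fitted difference of 2.57 ± 0.23 is no measure of the size either. With normexp the fitted difference was 0.18, or 0.33 with bright backgrounds replaced, and in the values deposited by the authors it was 1.80, all under 2.13. *CCR3* was read by 1 probe.

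The eotaxins *CCL24* and *CCL26*, ligands of CCR3, had lower means in low gain, while *CCL5*, another ligand, was higher as given above. *CCL24*, eotaxin-2, was at -1.36 and -1.39 in low gain and at -1.12 and -0.93 in high gain, with no overlap. Its difference was -0.35 ± 0.12 (limma adjusted p = 0.257), and its other probe gave -0.30 ± 0.12. With normexp the *CCL24* difference was -0.14, or -0.26 with bright backgrounds replaced. *CCL26*, eotaxin-3, was at 0.85 and 0.88 in low gain and at 0.95 and 1.02 in high gain (-0.12 ± 0.10). Of 14 markers of eosinophils, mast cells and basophils 4 were measured, *GATA2* at 0.27 ± 0.20, *MCT7* at 0.24 ± 0.11, *MS4A2* at 0.19 ± 0.10 and *KIT* at -0.02 ± 0.12. None passed, and none had an unadjusted limma p under 0.05. Their summed signal was 3.59 to 3.65 in low gain and 3.38 to 3.40 in high gain. The eosinophil genes *EPX*, *PRG2*, *IL5RA* and *SIGLEC8* had no tested probe, so the level of eosinophils was not tested.

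Chemokines and receptors of monocytes and neutrophils differed little. *CCR2*, the receptor of CCL2 on monocytes, had the widest difference of them, at 0.33 ± 0.11 (limma adjusted p = 0.256). It was 0.14 with normexp, or 0.27 with bright backgrounds replaced. *CCL2* differed by 0.12 ± 0.10 on both of its probes and *CCL8* by -0.05 ± 0.11. *CCR1* was at 0.02 ± 0.11 on its brighter probe, with groups that overlapped, but at -0.39 ± 0.11 on its other probe, without overlap, so its direction depended on the probe. *CXCL8*, the neutrophil chemokine interleukin 8, was higher on both low-gain arrays, at 0.14 and 0.21 against 0.00 and -0.14 (0.25 ± 0.11). *CXCL2*, another neutrophil chemokine, was at -0.61 and -0.48 in low gain and at -0.34 and -0.40 in high gain. This difference, -0.18 ± 0.11, had the opposite sign to that of *CXCL8*. Of 13 neutrophil markers 7 were measured, with a summed signal of 1.97 to 2.01 in low gain and 2.31 to 3.12 in high gain. Without *NCF1* the sums overlapped, at 1.23 to 1.4 and 1.09 to 1.37, and by their means 4 of 7 markers were higher in low gain (median log2 difference 0.53). The markers diverged: *S100A8*, a calgranulin gene, was at 1.06 ± 0.19 and *NCF1*, an oxidase subunit gene, at -1.11 ± 0.23. Of the 7 markers, 0 passed and 3 had an unadjusted limma p under 0.05 (all tested genes: 21.6%). What share they had in *CXCL8* and *CXCL2* was not tested. Cross-hybridisation between related genes, such as *CCL3L1* and *CCL4*, was not tested either.

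Ligand and receptor could be set side by side for 14 of 28 known pairs, several of which share a gene. Both genes had a higher mean in low gain in 7 pairs, among them *CCL25* with *CCR9*, *CXCL16* with *CXCR6*, *XCL1* with *XCR1* and *CCL28* with *CCR10*. Both were lower in 2 pairs, *CCL19* and *CCL21* with *CCR7*. They had opposite signs in 5 pairs, including *CXCL12* with *CXCR4* and *CCL27* with *CCR10*. The 7 include *CCL5* with *CCR3*, and the 5 include *CCL24* and *CCL26* with *CCR3*. *CCR3* entered the test only through low gain, so its sign in these pairs was set by the filter. No pair was tested as such.

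**Figure D4:**
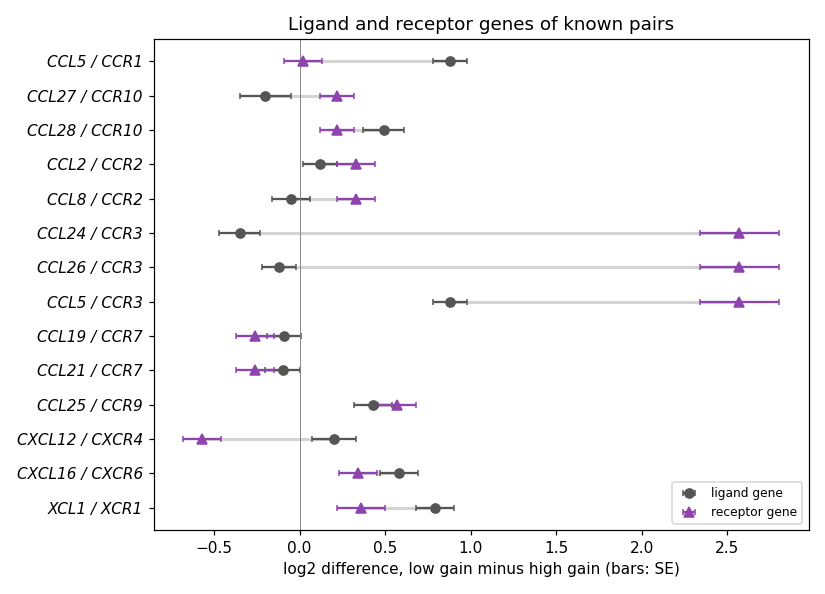
Differences (log2, low gain minus high gain, bars SE) of ligand genes (circles) and receptor genes (triangles) for the 14 pairs with both genes measured. *CCL25* and *CCR9* lie together at 0.43 and 0.57, *CXCL12* and *CXCR4* lie on opposite sides of 0, and the *CCR3* values are differences from a signal not well above background.

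Other genes of chemokine action were read from 5 lists. Among scavenging and related receptors and further ligands, platelet chemokines included, 5 of 10 were measured and 0 passed. Of the 5, 1, *CCRL2*, had an unadjusted limma p under 0.05 (all tested genes: 21.6%). *CCRL2*, an atypical receptor, was at -0.33 ± 0.11, *CMKLR1*, the chemerin receptor gene, at -0.44 ± 0.26, *RARRES2*, the chemerin gene, at 0.20 ± 0.10 and the chemokine *AMCF-II* at -0.03 ± 0.10. Of 31 genes of signalling below the receptors, 9 were measured, 0 passed and 3 had an unadjusted limma p under 0.05 (all tested genes: 21.6%). Their median was -0.19, with 7 of 9 lower in low gain (all tested genes: 46.6%). *GNAI2*, the inhibitory G protein subunit through which chemokine receptors signal, was at -0.48 ± 0.12, and its other probes gave -0.69 to -0.45. *AKT1* was at -0.45 ± 0.19. *RGS2*, a regulator of G protein signalling, was at 0.31 ± 0.10. *JAK2* was at 0.33 ± 0.10 on its brighter probe and at -0.64 on its other probe.

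Cytokines and factors that induce chemokines had a median of -0.03 over 17 measured genes of 21. None passed, and 5 had an unadjusted limma p under 0.05 (all tested genes: 21.6%), 1 higher and 4 lower in low gain. *IL1B* was at 0.57 ± 0.16 and *IL4* at 0.52 ± 0.23, while *STAT6* was at -0.49 ± 0.11 (other probe -0.09) and *RELA*, an NF-kB subunit gene, at -0.73 ± 0.25. Adhesion molecules of leukocyte entry had a median of -0.07 over 12 of 18 genes, with 0 at an unadjusted limma p under 0.05. Among them *VCAM1* was at 0.06 ± 0.11, *SELP* at 0.14 ± 0.10 and *SELPLG* at -0.65 ± 0.37. *SELPLG* entered the test only through its high-gain arrays, so the filter favoured a lower level in low gain. Of 6 peptidases that cut chemokines 4 were measured and 0 passed, but 3 had an unadjusted limma p under 0.05 (all tested genes: 21.6%), all higher in low gain. These were *ANPEP* (0.68 ± 0.10, other probes 0.14 to 0.55), *DPP4* (0.46 ± 0.12), which removes the first residues of several chemokines, and *MMP2* (0.45 ± 0.14), whereas *MMP9* was at -0.19 ± 0.10. *ANPEP* and *DPP4* are also enzymes of the enterocyte brush border.

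**Figure D5:**
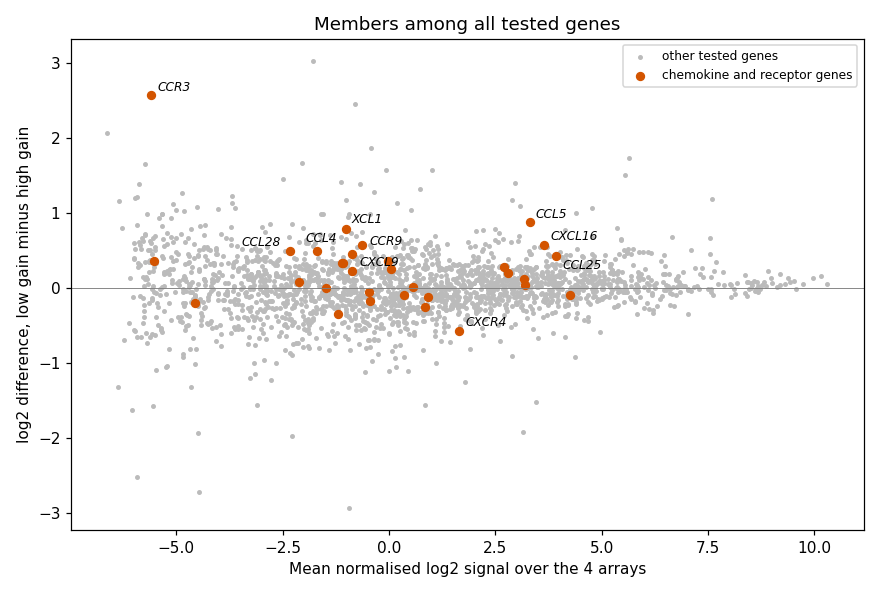
Difference between groups (log2, low gain minus high gain) against mean normalised log2 signal for all 2158 tested genes (grey) and the 31 members (orange), with the members of widest difference named. *CCL5*, *CXCL16* and *CCL25* lie in the right part of the plot, and *CCR3* lies at the left, where signals are near background.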

How the data were processed

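Each single-colour pig array was hybridised with pooled RNA labelled with Cy3, and whether arrays a and b of a group shared a pool is not stated. Per the file headers, the deposited intensity of each spot, and its flags, came from version 10.7.3.1 of Agilent Feature Extraction. A second table deposited by the authors gives log2 values. Not given in the sources used here are its processing and centring. The column medians were 5.59 to 5.67, it correlated at 0.982 to 0.993 with the log2 processed signal of the same arrays, and it served as an alternative.

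The log2 processed signal minus the 75th percentile of the array was averaged over unflagged spots of a probe, and 48 probes with a missing value, none of a member, were left out. A probe was tested when well above background on both arrays of at least 1 group. No spot was saturated. Groups were compared with lmFit and eBayes (limma 3.58.1, R 4.3.3), low minus high gain, adjusted over 33265 probes; the fit was tested on simulated data. An exact permutation test of 2 against 2 arrays cannot go below p = 0.333. Names came from RefSeq accessions matched without version to the NCBI table of Sscrofa11.1 (5461 of 5779 probes), and the brightest probe stood for a gene. No coordinates are printed. Members, lists and tests were chosen with earlier results of these data known, and members were put into groups by role after their values were seen. The rule gave array values for the 6 highest and 6 lowest differences and for gut and lymphoid traffic genes, and of each other list the 2 highest and 2 lowest differences, not all of which are printed, and a few genes that stay in the counts, 1 of them a member, are not reported here by name; *CXCL8*, *IFNG* and *IRF1* were added after their values were seen, as were *CD163* and the order of the roles. The letters a and b are not stated to pair arrays. Deviations from the group means of arrays with the same letter had a correlation of -0.03 over 31471 probes, which cannot settle whether they were paired. The number of arrays limits the precision. The alternatives were other scalings, backgrounds, filters, priors, left-out arrays, the letter as a block and the mean over probes.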

Additional observations from a re-analysis of the deposited data

How the results depend on the processing

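Of 31 members, 26 kept the sign of their difference in all alternatives that measured them, 18 for each but *CCR3*, which had 17. *CCL20* turned to -0.03 with both forms of normexp and to -0.04 in the authors' values, and *CCR1* to -0.19 with the mean over its probes. With 1 array left out, with or without the intensity trend, *CCR1* ranged from -0.06 to 0.10, *CCL3L1* from -0.05 to 0.22 and *CCL8* from -0.11 to 0.00, where it crossed 0. Members past the test numbered 0 in the fit reported, 1 with median centring (*CCR3*, which entered the test through low gain alone; all tested genes: 0.834%), 6 with normexp (8.2%), 5 with bright backgrounds replaced (5.47%), 7 with the intensity trend (7.88%), 0 in each fit without 1 array and 1 to 2 in such fits with the trend (1.16% to 3.38%). Probes past the test, 80 in the fit reported, numbered 163 with median centring, 1237 with normexp, 820 with bright backgrounds replaced, 12 without a filter on dim probes, 0 with signal required on all 4 arrays, 1250 with the intensity trend, 0 to 37 without 1 array and, without 1 array but with the trend, 197 (low-gain a), 462 (low-gain b), 130 (high-gain a) and 542 (high-gain b). The fits without 1 array have 1 residual degree of freedom, and where a group is left with 1 array, that array is assumed to vary like the other group. With the replicate block (the letters a and b) 0 probes and 0 members passed, and 10 members had an unadjusted p under 0.05. The median over members was 0.11 with normexp and 0.16 with bright backgrounds replaced, both with the added offset of 50 that narrows differences of dim probes. The part of the offset in these changes, and other causes, were not tested. Replacing bright backgrounds and leaving out arrays with the trend were chosen after seeing the data. For *CCR3*, low signal leaves the size of the difference unknown.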

Other observations

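Chemokine and receptor genes often lie side by side, and neighbours were read from the gene order of Sscrofa11.1, taking members with at most 10 other genes between them. The neighbouring receptor genes *CCR9*, *CXCR6*, *XCR1*, *CCR1*, *CCR3* and *CCR2* had differences from 0.02 (*CCR1*) upwards, and that of *CCR3* was the widest. None of these 6 was below 0 on the brightest probe, but *CCR3* entered the test only through low gain. *CCR1* was below 0 on its other probe, and its sign turned without low-gain array b. The interferon-inducible neighbours *CXCL9*, *CXCL10* and *CXCL11* lay between 0.28 and 0.46. By contrast, *CCL21*, *CCL19* and *CCL27* lay between -0.20 and -0.09 and *CCL24* and *CCL26* at -0.35 and -0.12. The neighbours *CXCL8* (0.25) and *CXCL2* (-0.18) had opposite signs, as did *CCL2* (0.12) and *CCL8* (-0.05). No block was tested.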
